A study of Mus musculus with 24 samples.

Results

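The members described here were the potassium channel genes expressed in the prefrontal cortex (PFC) and nucleus accumbens (NAc) of the mouse, taken as the genes with a symbol starting with Kcn and not ending in -ps or os. Of 99 such rows, 2 were left out for their ending and 21 did not reach an FPKM of 1 in at least 3 of the 24 libraries, which left 76 members among 48526 rows in all, of which 16072 passed the same minimum. FPKM are fragments scaled by transcript length in kilobases and by the mapped fragments of the library, so levels below are per length and can be set beside each other. The members held 75 genes of channel subunits and Kcnmb4os2, an antisense RNA of Kcnmb4 whose symbol ends in os2. Just inside the minimum were Kcne2, with 3 libraries at an FPKM of at least 1, Kcnj13 and Kcnj14, each with 4, and Kcnj5, with 8. Just outside it was Kcnk15, with 1 library and levels of 0.0243 to 1.84 FPKM in PFC.

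Tissue came from male C57BL/6J mice that were 8 weeks old when obtained and were then entrained for 2 weeks to 12 h light and 12 h dark. Control (Ctrl) mice stayed on that cycle, whereas mice under chronic jet lag (CJL) had the lights advanced by 6 h every 2 days. On Day 10 PFC and NAc were taken at Zeitgeber time 1 (ZT1, 1 h after lights on) and at ZT13 (1 h into the dark). Region, lighting and time gave 8 groups of 3 libraries of polyadenylated RNA from dissected bulk tissue. The study's methods took both regions from the same mice, but the labels do not say which libraries share a mouse, so tests were unpaired and p-values measure the spread between these libraries. In bulk tissue, fewer cells of a type and less RNA per cell cannot be told apart.

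Potassium channels let potassium leave the cell, and so set the resting potential, end the action potential and fix the pause before the next spike. Voltage-gated pore subunits open on depolarization, inward rectifiers and leak channels hold the membrane at rest, and calcium-activated channels couple calcium entry to the afterpotential. Accessory and electrically silent subunits form no current alone but change the gating, assembly or placement of the pores they join. In projection neurons of the striatum, which includes NAc, strong inward rectification and A-type currents hold the cell in a silent down state, and in the central clock potassium conductances lower firing at night.

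The libraries matched their region by markers. The summed FPKM of 8 markers of cortical projection neurons was 550 to 806 in PFC and 56.7 to 243 in NAc, and that of 10 markers of striatal projection neurons was 589 to 1665 in NAc and 143 to 309 in PFC. Within a group, replicate libraries correlated with Pearson's r of 0.952 to 0.984 across genes, and no pair was a duplicate. Several libraries also held markers of neighbouring tissue. The sum of 9 thalamus and hypothalamus markers was 442 and 438 in NAc ZT1 CJL 2 and 3 and 509 in NAc ZT13 CJL 3, against 190 or less in the other NAc libraries. The striatal sum of these 3 libraries was 826, 589 and 788, and was at least 1148 in the others. The sum of 10 olfactory bulb markers was 224 in PFC ZT1 CJL 2 and 92.3 in PFC ZT1 Ctrl 1, against 55.7 or less elsewhere in PFC. Of 8 choroid plexus markers the sum reached 613 in PFC ZT13 Ctrl 1, 695 in PFC ZT13 CJL 1 and 1204 in NAc ZT13 Ctrl 3.

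Summed over members, PFC held more potassium channel transcript than NAc. The sum was 1126 to 1288 FPKM in the 12 PFC libraries (median 1257) and 886 to 1093 in the 12 NAc libraries (median 988), and the ranges did not overlap. Summed levels of the silent subunits were 82.9 to 105 FPKM in PFC and 37.4 to 60.5 in NAc. The sum of the Kcnh class (EAG, ERG and ELK channels) was 92.9 to 107 in PFC and 49.5 to 70.6 in NAc. For the Kv1 pores of the Kcna genes the ranges overlapped, with 50.0 to 77.6 in PFC and 58.6 to 91.4 in NAc. The sums of the accessory subunits (255 to 324 against 208 to 320) and of the Kcnq class (52.9 to 69.5 against 47.2 to 70.9) overlapped too.

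**Figure D1:**
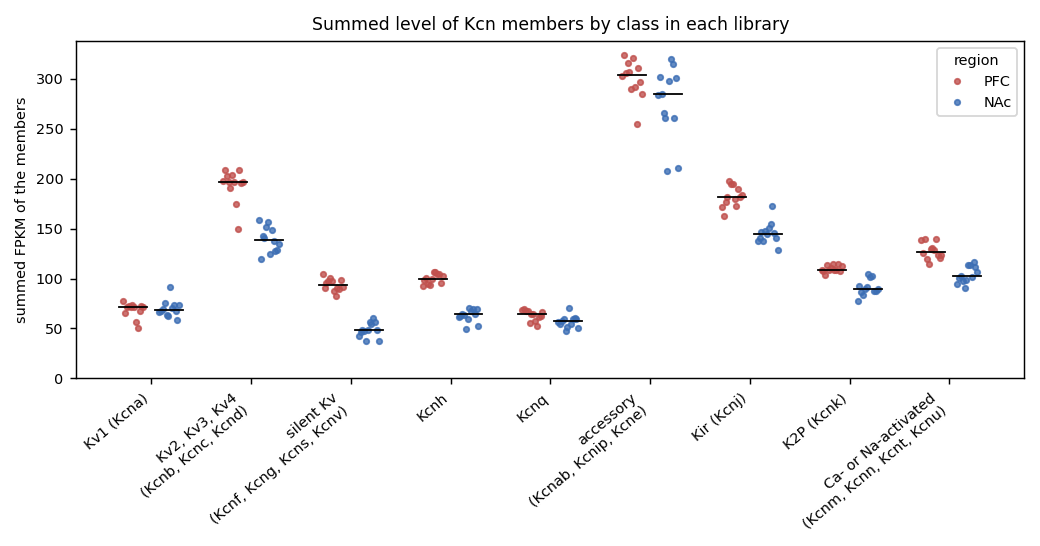
Summed FPKM of the 75 channel subunit members by class in each library (points, PFC red, NAc blue, black bar the median of the 12 libraries of a region). The silent subunits and the Kcnh class lie apart between the regions, whereas the Kcna, Kcnq and accessory classes overlap.

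The most abundant member was Kcnab2, a cytoplasmic beta subunit of Kv1 channels, at 122 ± 24.6 FPKM in PFC and 74.1 ± 24.02 in NAc (SD, n = 12 libraries each). Kcnh3, an ELK channel of the forebrain, was at 53.5 ± 4.46 in PFC. In NAc Kcnab2 was followed by Kcnab1 (55.2 ± 11.9), another Kv1 beta subunit, and by Kcnip2 (48.6 ± 11.0), a calcium-binding subunit of A-type Kv4 channels. The SDs of Kcnab1 and Kcnip2 overlap in NAc, so their order is not set by these libraries. Abundant members of other classes in PFC were Kcnc1, a pore of fast-spiking cells (49.7 ± 4.11), Kcnj4, an inward rectifier (49.7 ± 6.01), Kcnmb4, the neuronal BK beta subunit (45.6 ± 6.76), Kcnk1, a weak leak channel (43.3 ± 2.52), Kcnf1, a silent subunit (33.1 ± 4.77), and Kcna2, an axonal Kv1 pore (29.3 ± 3.76).

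Between regions, 60 of 76 members differed, and more fell in NAc than rose. The study lists a lower mapping rate and a lower share of high-quality bases for every NAc library than for any PFC library. Differences between regions, here and in the sums above, cannot be told apart from this difference in sequencing. Its part in the results was not tested. Across all 24 libraries 21 members were higher in NAc, against 44% of all genes tested, and 39 were lower, against 21.7% (limma, adjusted p under 0.05 over 16072 genes). The median member differed by -0.24 on the log2 scale (NAc minus PFC) and the median of all genes by 0.12. With median-of-ratios scaling or quantile normalization, which bring the median of all genes to -0.01 and 0.00, the counts were 18 higher and 47 lower. The calls of Kcnd1 and Kcng3 ended under both, that of Kcnt1 under the first and that of Kcnk13 under the second. Of all 16072 genes, 10146 were called with the first and 10026 with the second. Their directions were not counted, so the shares above belong to the unscaled fit alone. Log2 differences below are of FPKM with 0.1 added, which understates the change of low genes.

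Of the Kv1 pores, which shape spike threshold and repetitive firing, Kcna3, Kcna4 and Kcna5 were higher in NAc, Kcna1 and Kcna2 lower, and Kcna6 was not called. Kcna5 (ENSMUSG00000045534, mm10 chr6:126532551-126535412) had the largest rise among members. Its lowest, median and highest levels were 0.611, 0.924 and 2.33 FPKM in PFC and 4.04, 8.02 and 10.5 in NAc. No NAc library fell within the PFC range, and the log2 difference was 2.73 ± 0.20 (SE, adjusted p = 3.4e-10). The 3 NAc libraries with high thalamus and hypothalamus markers were the lowest, at 4.24, 4.04 and 4.31 FPKM, and the other 9 lay between 7.61 and 10.5. Kcna3, known best from lymphocytes and microglia as well as axons, differed by 1.12 ± 0.12 and Kcna4, an inactivating pore, by 1.02 ± 0.11, both with some overlap of the libraries.

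Of the other voltage-gated pores the Kv4 genes Kcnd1, Kcnd2 and Kcnd3, which carry the somatodendritic A-type current, were higher in NAc, and the Kv3 genes Kcnc1 to Kcnc4, whose channels allow fast spiking, were lower. Kcnd2 was 13.9, 16.9 and 20.5 FPKM (lowest, median, highest) in PFC and 20.8, 24.4 and 26.6 in NAc, apart in every library, with a log2 difference of 0.48 ± 0.05 (adjusted p = 1.3e-07). The accessory subunits of the same channels divided between the regions. Kcnip1 (0.81 ± 0.07), Kcnip4 (0.69 ± 0.18), Kcnab1 (0.90 ± 0.10) and Kcne1l (1.61 ± 0.13) were higher in NAc. For Kcnip4, PFC ZT13 CJL 1 and 3 lay far below the other PFC libraries, with levels given below, which enlarges its difference. Kcnip3, also called calsenilin (-0.52 ± 0.06), Kcnab2 (-0.77 ± 0.14) and Kcnab3 were lower. Kcnab3, a Kv1 beta subunit, was 21.4, 30.01 and 33.5 FPKM (lowest, median, highest) in PFC and 7.39, 9.36 and 12.0 in NAc, with no overlap and a log2 difference of -1.56 ± 0.08 (adjusted p = 9.5e-13).

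The silent subunits, which join Kv2 pores and shift their gating, had the lowest median of the classes other than the lone antisense RNA, at -0.85, with 5 of 9 lower in NAc and 1, Kcng3, higher. Kcns1 was 6.84, 8.62 and 10.0 FPKM (lowest, median, highest) in PFC and 1.20, 1.82 and 3.46 in NAc, a log2 difference of -2.13 ± 0.11 (adjusted p = 2.4e-12). Kcnv1 was 26.5 to 33.1 in PFC and 4.65 to 15.3 in NAc, a difference of -1.73 ± 0.11 (adjusted p = 5.15e-11). Neither gene overlapped between regions. Kcnf1, Kcns3 and Kcng4 were also lower, and Kcns2 was 6.54 ± 1.26 in PFC and 6.26 ± 0.63 in NAc, a difference of -0.05 ± 0.07.

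Of the 7 Kcnh members 4 were lower in NAc and 2 higher. In the fits of a single region 7 reached the minimum in NAc and 6 in PFC. The member short of it in PFC passed only through NAc. The minimum thus favoured a rise of that member, and its test is no independent support for one. Kcnh3 fell from 47.6, 53.3 and 60.6 FPKM (lowest, median, highest) in PFC to 13.9, 24.4 and 30.8 in NAc, with no overlap and a log2 difference of -1.22 ± 0.09 (adjusted p = 3.8e-10). Kcnh2, the ERG channel that also repolarizes the heart, rose by 0.65 ± 0.06 and its relative Kcnh6 by 0.67 ± 0.12. Of the M-current genes Kcnq5 was lower (-0.44 ± 0.09), while Kcnq3 differed by 0.07 ± 0.09 and was not called.

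Among the inward rectifiers, the G-protein-gated subunits separated by gene. Kcnj5 rose in NAc from 0.0467, 0.0994 and 0.264 FPKM (lowest, median, highest) to 0.458, 1.07 and 2.51, a log2 difference of 2.52 ± 0.19 (adjusted p = 4e-10). It passed the minimum only through NAc, so the minimum favoured this direction and the test of Kcnj5 is no independent support for it. Kcnj9 fell from 41.3, 49.8 and 53.2 to 12.3, 18.6 and 21.9 (-1.47 ± 0.08, adjusted p = 2e-12), and Kcnj6 from 4.31, 8.20 and 10.4 to 1.31, 2.87 and 4.28 (-1.47 ± 0.12, adjusted p = 1.2e-09). All 3 were apart between regions in every library. Kcnj3, a further subunit of G-protein-gated channels, was lower too (-0.98 ± 0.10). Kcnj2, a strong rectifier of striatal projection neurons, was higher (0.52 ± 0.12), and its relatives Kcnj4 (-0.31 ± 0.11) and Kcnj12 (-0.18 ± 0.07) were lower. These calls ended with the GC and length correction (Kcnj2), without the libraries with high markers of neighbouring tissue (Kcnj4) and without NAc ZT13 CJL 2 (Kcnj12). In NAc the highest level of Kcnj5, 2.51, was in ZT1 CJL 2, one of the libraries with high thalamus and hypothalamus markers, and the other such libraries held 1.31 and 1.88, against 0.458 to 1.34 elsewhere. The part of these markers in the result was not tested.

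Of the leak channels 5 were lower in NAc and 2 higher, and of the calcium- and sodium-activated channels with their beta subunits also 5 and 2. Kcnk4 (ENSMUSG00000024957, mm10 chr19:6925710-6934515), a mechanically gated leak channel, had the largest fall among members. Its lowest, median and highest levels were 6.999, 10.5 and 11.8 FPKM in PFC and 0.735, 1.56 and 2.71 in NAc, a log2 difference of -2.66 ± 0.14 (adjusted p = 3.2e-12) without overlap. Kcnk4 shares 13.1% of its exon bases with Catsperz on the same strand, so part of its reads may not be its own. Kcnk2 (0.41 ± 0.04), a lipid- and stretch-sensitive leak channel, and Kcnk13 (0.42 ± 0.09), a leak channel of microglia, were higher. Kcnn3, a small-conductance calcium-activated channel, was 2.75, 4.14 and 5.36 FPKM in PFC and 9.53, 11.7 and 13.1 in NAc, a difference of 1.49 ± 0.06 (adjusted p = 6.4e-14), whereas Kcnn1 (-0.72 ± 0.05) and Kcnn2 (-0.55 ± 0.09) of the same family were lower. Kcnmb4 fell from 36.6, 43.9 and 60.9 to 14.98, 18.4 and 27.7 (-1.23 ± 0.09, adjusted p = 6.5e-10), while its pore Kcnma1 was 13.3 ± 3.04 and 11.7 ± 1.90 and was not called (-0.16 ± 0.10). Kcnmb4os2, which shares 20.8% of the exon bases of Kcnmb4 on the opposite strand, was lower too (-1.01 ± 0.13), and reads of the pair cannot be told apart without strand.

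**Figure D2:**
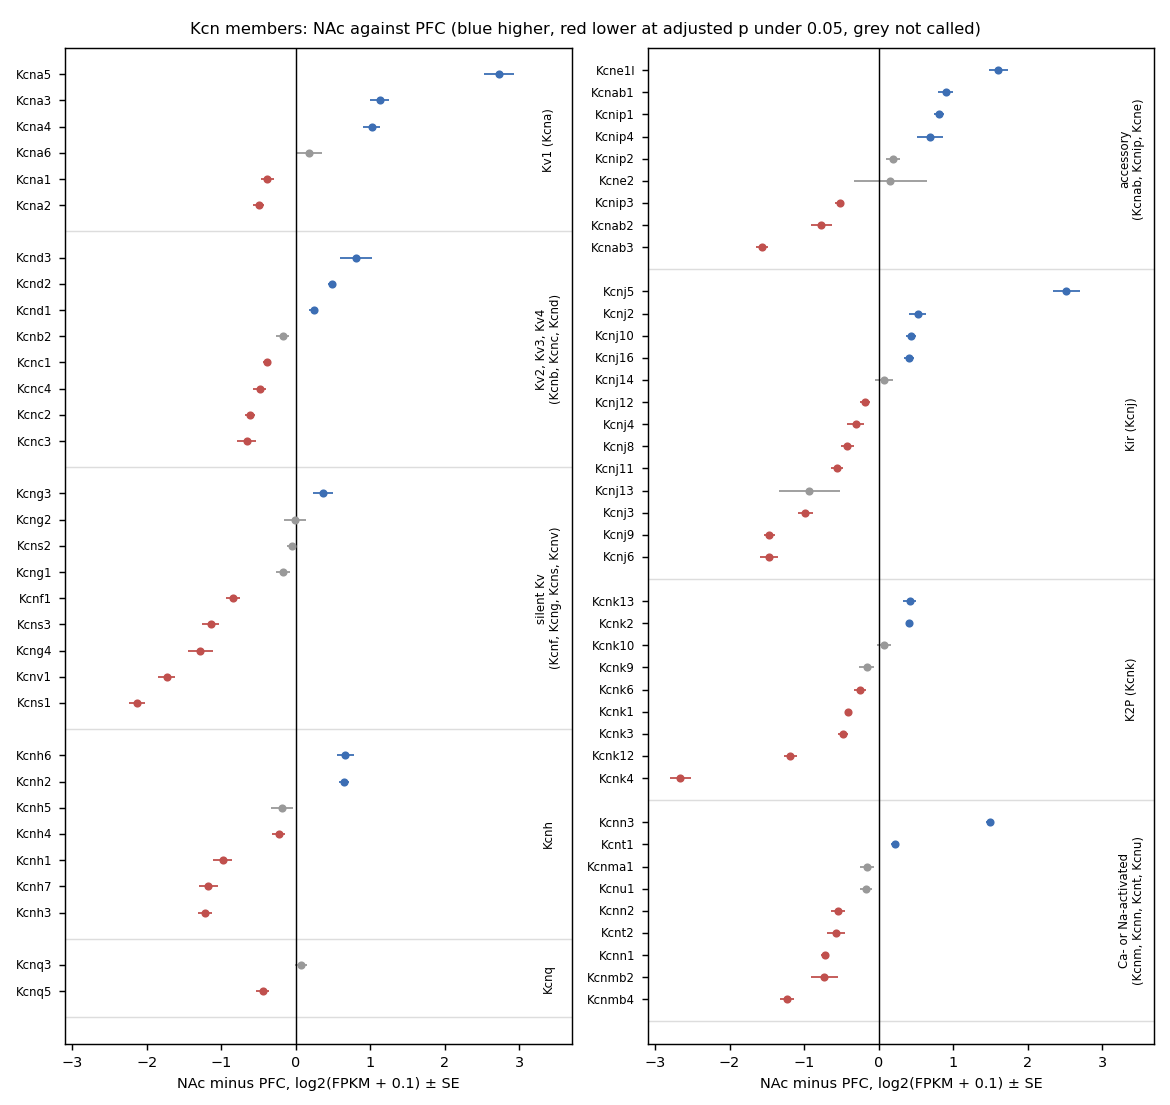
Log2 difference of NAc minus PFC for 72 of the channel subunit members by class (points, limma estimate from 24 libraries, bars ± SE). Blue points are higher and red points lower in NAc at an adjusted p under 0.05, and grey points were not called. Kcna5, Kcnj5 and Kcnn3 lie farthest to the side of NAc among the genes without overlap, and Kcnk4, Kcns1 and Kcnv1 farthest to the side of PFC. Kcnj5 passed the FPKM minimum only through NAc.

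Of 32 genes for partner proteins of these channels without a Kcn symbol, 10 were higher in NAc, 11 lower and 11 not called. Those higher were Amigo2 (1.45), a neuronal adhesion protein, Akap5 (1.22), a kinase scaffold, and Cntnap2 (1.00) and Cntn2 (0.56), which cluster Kv1 channels beside the node of Ranvier. Dpp6 (0.63), a Kv4 subunit, Lrrc55 (0.73), a BK gamma subunit, Lgi2 (0.40), Adam22 (0.17), Gnb5 (0.39) and the initial-segment scaffold Ank3 (0.26) were also higher. Among those lower were the sulfonylurea receptors Abcc8 (-0.79) and Abcc9 (-0.52), the calmodulin genes Calm2 (-0.36) and Calm3 (-0.66), Dlg4 (-0.38), Rgs7 (-0.33), Dpp10 (-0.30), Lrrc38 (-0.58), Lgi4 (-0.24) and Cntnap1 (-0.20). The partner of Kv4 channels Dpp6 and the pores Kcnd1 to Kcnd3 thus stood on the NAc side, and Dpp10 on that of PFC.

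Some members are known from cells other than neurons. Kcnj10 and Kcnj16, which form the potassium buffer channel of astrocytes, were higher in NAc, at 46.6 ± 7.30 against 34.4 ± 3.93 FPKM (0.43 ± 0.07) and 8.19 ± 1.44 against 6.12 ± 0.80 (0.41 ± 0.07). The sum of 8 astrocyte markers was 513 to 607 in NAc and 437 to 643 in PFC, with none of the markers at 0. That of 8 oligodendrocyte markers was 1085 to 2658 in NAc (median 1670) and 865 to 1336 in PFC (median 1151). The part of either cell type in the result was not tested. Kcnj8, the pore of pericyte and smooth muscle KATP channels, was lower in NAc, at 1.04 ± 0.20 against 1.41 ± 0.21 (-0.42 ± 0.08). The sum of 8 pericyte and smooth muscle markers was also lower, 53.6 to 71.4 against 75.2 to 93.8, and the part of this in the result was not tested.

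Kcne2 and Kcnj13, channels of the choroid plexus, were highest in the libraries with the most choroid plexus markers. Kcne2 was 4.58 FPKM in NAc ZT13 Ctrl 3, 2.88 in PFC ZT13 CJL 1 and 2.10 in PFC ZT13 Ctrl 1, and 0.378 or less in the other 21 libraries. Kcnj13 was 8.87, 4.54 and 4.70 in the same 3 libraries and 1.55 in PFC ZT13 Ctrl 2, with 0.894 or less in the rest. The choroid sum was 1204, 695, 613 and 100 FPKM in these 4 libraries, 21.4 in PFC ZT13 Ctrl 3, 2.04 to 11.0 in the other PFC libraries and 13.4 to 42.8 in the other NAc libraries. Kcnj13 shares 49.1% of its exon bases with Gigyf2 on the opposite strand. Neither gene was called in any comparison that tested it.

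**Figure D3:**
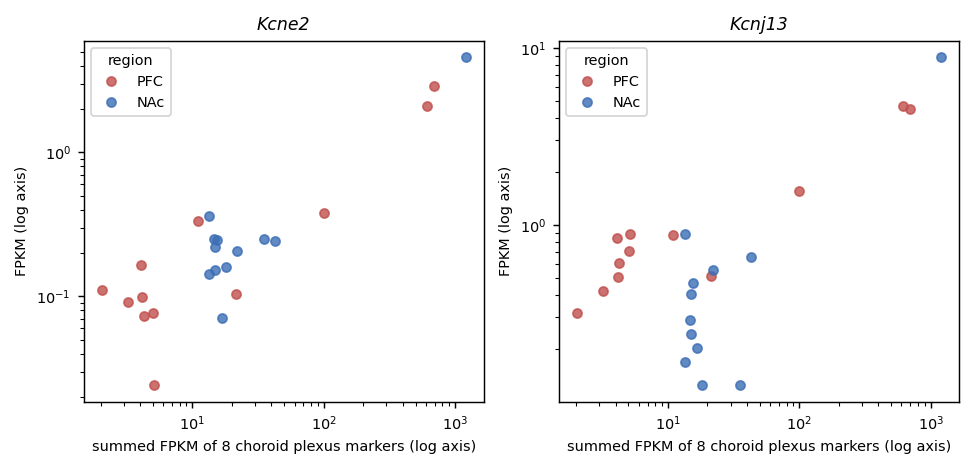
FPKM of Kcne2 and Kcnj13 against the summed FPKM of 8 choroid plexus markers in the 24 libraries (log axes, PFC red, NAc blue). The 3 libraries with sums of 613, 695 and 1204 hold the highest levels of both genes.

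In PFC of Ctrl mice, 13 of 72 members tested differed between ZT13 and ZT1. Levels of 4 were higher at ZT13, against 8.8% of all 14914 genes, and levels of 9 were lower, against 3.54%. Those higher were Kcnh4, Kcnab3, Kcnj9 and Kcnk1, and among those lower were Kcna3, Kcnd3, Kcng3, Kcnj6, Kcnj12, Kcnma1 and Kcnn3. The median member differed by -0.08 (log2, ZT13 minus ZT1) and the median of all genes by 0.06. With median-of-ratios scaling or quantile normalization 2 were higher and 13 lower, of which 11 were among the 13, and Kcnj9 and Kcnk1 were no longer called. Of all genes 1626 and 1620 were called with these scalings, and their directions were not counted. In each of the 13 genes the 3 libraries of ZT13 lay apart from the 3 of ZT1. The genes were called on these same libraries, so this is no further support, and the share over all genes was not counted.

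Kcnh4 (ENSMUSG00000035355, mm10 chr11:100740376-100759942), an ELK channel, was 7.51, 8.27 and 8.07 FPKM at ZT1 and 11.3, 12.4 and 11.8 at ZT13 in PFC of Ctrl mice. The log2 difference was 0.57 ± 0.09 (adjusted p = 0.0071), the smallest adjusted p among members, and the call held in all 20 alternative settings. Under CJL the levels were 7.64, 6.27 and 7.46 at ZT1 and 9.83, 8.80 and 9.75 at ZT13, again apart, with a difference of 0.41 ± 0.09 that did not pass over all genes (adjusted p = 0.32). In NAc of Ctrl mice they were 8.14, 6.505 and 7.28 at ZT1 and 9.45, 8.49 and 8.89 at ZT13, a difference of 0.29 ± 0.21 (adjusted p = 0.66).

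Because the samples differ in time of day, the 250 bases before the start of the members' transcripts (RefSeq, GRCm38.p6) were searched on both strands for the E-box CACGTG, which the clock factors CLOCK and BMAL1 bind, for the ROR element TAGGTCA and for TGACGTC, the cAMP response element without its last base. A window was given for 54 of the 76 members, and the E-box was in those of Kcnh4, Kcnj2 and Kcnab1, against 6.86% of 27025 genes. The ROR element was in none of the members' windows, against 2.55% of genes, and TGACGTC in that of Kcne2 alone, against 3.16%. A match is a stretch of letters and not a measured site. The windows with the E-box are shown 5′ to 3′ on the strand of the gene, with the E-box in capitals. The window of Kcnh4 is chr11:100759779-100760028 (minus strand, E-box at positions -87 to -82 from the start), that of Kcnj2 chr11:111065914-111066163 (plus strand, -84 to -79), and that of Kcnab1, the one of its 3 windows with the E-box nearest a start, chr3:65187853-65188102 (plus strand, -45 to -40).
Kcnh4: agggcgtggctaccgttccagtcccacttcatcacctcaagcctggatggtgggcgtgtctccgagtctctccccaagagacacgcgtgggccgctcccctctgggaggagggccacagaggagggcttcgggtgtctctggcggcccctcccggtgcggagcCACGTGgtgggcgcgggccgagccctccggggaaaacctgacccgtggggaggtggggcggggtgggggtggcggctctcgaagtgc
Kcnj2: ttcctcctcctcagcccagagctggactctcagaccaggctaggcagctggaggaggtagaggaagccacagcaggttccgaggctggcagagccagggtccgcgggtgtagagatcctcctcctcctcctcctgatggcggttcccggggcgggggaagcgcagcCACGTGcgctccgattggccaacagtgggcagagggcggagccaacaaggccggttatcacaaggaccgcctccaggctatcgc
Kcnab1: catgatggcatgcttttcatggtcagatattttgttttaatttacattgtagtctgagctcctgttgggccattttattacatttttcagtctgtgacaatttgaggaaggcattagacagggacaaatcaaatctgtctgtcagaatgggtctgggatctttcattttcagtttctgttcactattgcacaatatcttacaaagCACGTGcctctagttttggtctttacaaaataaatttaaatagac

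Of these 3 genes only Kcnh4 passed the test in PFC of Ctrl mice. Kcnj2, whose E-box stands at nearly the same distance from the start as that of Kcnh4, was 4.99, 4.65 and 5.51 FPKM at ZT1 and 3.42, 3.11 and 3.39 at ZT13, lower in all 3 but not called (-0.59 ± 0.20, adjusted p = 0.069). Kcnab1 was 30.3, 26.8 and 23.8 at ZT1 and 25.03, 30.03 and 31.7 at ZT13, with overlap (0.10 ± 0.10, adjusted p = 0.55). The promoter window of Kcnh4 lies partly inside the gene as the deposited coordinates draw it, and its E-box lies within that part. The deposited gene starts farther upstream than the RefSeq transcript.

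The other 3 members higher at ZT13 were a Kv1 beta subunit, a G-protein-gated rectifier and a leak channel. Kcnab3 was 22.0, 23.3 and 21.4 FPKM at ZT1 and 29.97, 32.4 and 29.8 at ZT13 (0.46 ± 0.09, adjusted p = 0.012). Kcnj9 was 41.4, 41.3 and 42.4 at ZT1 and 52.0, 49.8 and 49.8 at ZT13 (0.28 ± 0.07, adjusted p = 0.034). Kcnk1 was 40.5, 38.7 and 39.3 at ZT1 and 44.3, 45.0 and 45.5 at ZT13 (0.19 ± 0.05, adjusted p = 0.04). The call of Kcnab3 held in 19 of 20 settings, that of Kcnj9 in 9 and that of Kcnk1 in 4. With the GC and length correction the difference was 0.16 for Kcnj9 (adjusted p = 0.19) and 0.03 for Kcnk1 (adjusted p = 0.74), and with quantile normalization 0.19 and 0.09.

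Among the inward rectifiers that fell, Kcnj6 was 10.4, 9.53 and 9.47 FPKM at ZT1 and 7.82, 5.33 and 4.31 at ZT13 (-0.78 ± 0.16, adjusted p = 0.014, held in 18 of 20 settings). Kcnj12, a strong rectifier, was 7.29, 5.73 and 6.84 at ZT1 and 4.83, 4.36 and 4.84 at ZT13 (-0.49 ± 0.11, adjusted p = 0.017, 15 of 20). Kcnj6 thus fell while Kcnj9, another G-protein-gated subunit, rose in the same libraries, though the call of Kcnj9 held in only 9 of 20 settings. Of the calcium-activated channels, Kcnn3 was 4.71, 4.19 and 4.36 at ZT1 and 3.32, 3.21 and 2.75 at ZT13 (-0.50 ± 0.11, adjusted p = 0.019, 15 of 20). Kcnma1, the BK pore, was 18.0, 15.7 and 15.01 at ZT1 and 14.6, 9.03 and 6.98 at ZT13 (-0.73 ± 0.21, adjusted p = 0.041, 7 of 20). In Kcnj6, Kcnn3 and Kcnma1, and in Kcna3, Kcng3 and Kcnd3 below, the library PFC ZT13 Ctrl 1 stood nearer to ZT1 than the other libraries of ZT13. The sum over all members was 1288, 1187 and 1126 FPKM in PFC ZT13 Ctrl 1, 2 and 3 and 1265, 1253 and 1264 in PFC ZT1 Ctrl.

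Of the voltage-gated members that fell, Kcna3 was 3.67, 2.87 and 3.33 at ZT1 and 2.70, 1.66 and 1.17 at ZT13 (-0.87 ± 0.24, adjusted p = 0.039, 10 of 20), and Kcng3, a silent subunit, 1.38, 1.41 and 1.14 against 0.999, 0.604 and 0.482 (-0.88 ± 0.25, adjusted p = 0.042, 9 of 20). Kcnd3 was 4.57, 11.5 and 3.74 at ZT1 and 2.67, 2.01 and 1.75 at ZT13 (-1.42 ± 0.37, adjusted p = 0.031, 14 of 20). A single library held the high Kcnd3 level, and without PFC ZT1 Ctrl 2 the difference was -0.94 and not called. The nearest members outside the threshold were Kcna1 (-0.56 ± 0.17, adjusted p = 0.051) and Kcnj4 (0.29 ± 0.09, adjusted p = 0.053), both named after their values were seen.

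**Figure D4:**
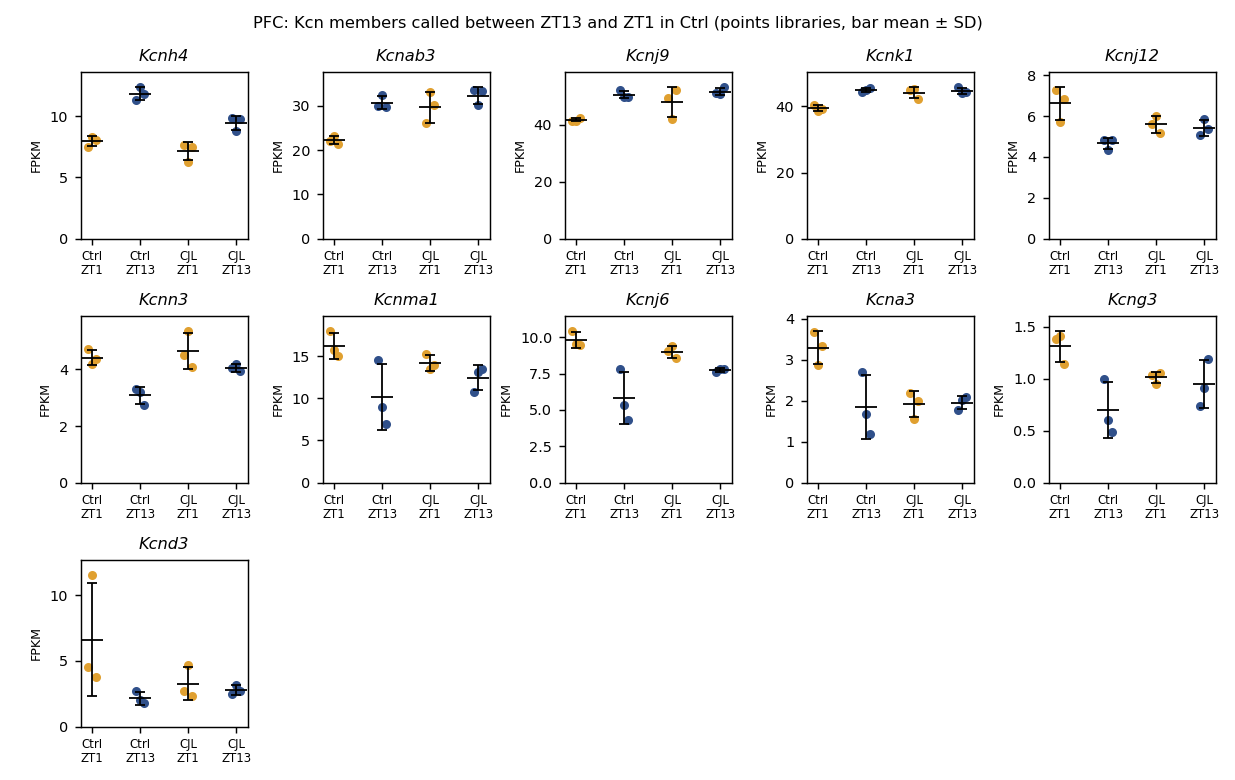
FPKM of 11 of the 13 members called between ZT13 and ZT1 in Ctrl mice, in the 12 PFC libraries (points, ZT1 orange, ZT13 blue, bars mean ± SD of 3 libraries). The genes were chosen for their difference in Ctrl, where the times are apart in each gene shown, so the plot makes no comparison of Ctrl with CJL.

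The count of 13 rested on few libraries. Leaving out PFC ZT13 Ctrl 2 left 1 member called, Kcnh4, and leaving out PFC ZT13 Ctrl 3 left 3, Kcnh4, Kcnab3 and Kcnj6. Leaving out PFC ZT13 Ctrl 1 gave 22, and leaving out PFC ZT1 Ctrl 1, 2 or 3 gave 6, 5 and 5. Choroid plexus markers moved with time in these groups, at sums of 613, 100 and 21.4 at ZT13 and 2.04, 5.10 and 11.0 at ZT1. A setting left out PFC ZT13 Ctrl 1, ZT1 Ctrl 1, ZT13 CJL 1 and ZT1 CJL 2 for markers of neighbouring tissue. PFC ZT13 Ctrl 2 and 3, with the choroid sums of 100 and 21.4, stayed in. In that setting 18 members were called, 4 higher and 14 lower, of which 11 were among the 13. Of all genes 2373 were called there, and their directions were not counted. Of 4 markers of fast-spiking interneurons, Pvalb (0.55 ± 0.12) and Cox6a2 (0.72 ± 0.10) were higher at ZT13, while Lhx6 (0.06 ± 0.14) and Syt2 (0.13 ± 0.21) overlapped between the times and were not called, at sums of 69.5, 73.7 and 69.7 against 46.2, 60.7 and 49.9. The sum of 8 astrocyte markers was 609, 496 and 437 at ZT13 and 564, 597 and 643 at ZT1. None of the 8 cortical projection markers was called (median 0.00). The part of these markers in the result was not tested. Of the 32 partners, Lgi2 (0.42), Calm2 (0.30) and Calm3 (0.22) were higher at ZT13 and Akap5 (-0.58), Ank3 (-0.50) and Rgs7bp (-0.56) lower.

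Under CJL no member passed the test between the times in PFC, where 0.0335% of all genes did. At an unadjusted P under 0.05 there were 8 members of 72, against 6.88% of genes. The members with the smallest P among those without overlap were Kcnh4 (above), Kcnj8 (1.75, 1.78 and 1.57 FPKM at ZT1 and 1.18, 1.17 and 1.26 at ZT13, -0.47 ± 0.13), Kcns2 (-0.49 ± 0.14) and Kcnj4 (-0.23), each with an adjusted p of at least 0.32. Kcnab3 was 26.0, 33.0 and 30.1 at ZT1 and 33.5, 30.1 and 33.3 at ZT13 under CJL, with overlap. Whether the time difference itself changed with lighting was tested by the interaction, which called no member and 0.0805% of genes (unadjusted 11 members of 72 against 18.4%). Its smallest P were those of Kcnj4 (-0.52 ± 0.12, adjusted p = 0.089), Kcnj8 (-0.64 ± 0.18, adjusted p = 0.11), Kcnj12 (0.45 ± 0.15, adjusted p = 0.15) and Kcnc2 (0.38 ± 0.13, adjusted p = 0.15). The interaction of Kcnab3 was -0.34 ± 0.12 (adjusted p = 0.18) and that of Kcnh4 -0.16. The 13 calls in Ctrl and none under CJL are therefore not shown to differ by lighting.

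Between CJL and Ctrl at ZT1 in PFC, Kcnab3 alone was called among 72 members, and it was higher under CJL. Its levels were 26.0, 33.0 and 30.1 FPKM under CJL and 22.0, 23.3 and 21.4 in Ctrl, apart in all 3, with a log2 difference of 0.41 ± 0.09 (adjusted p = 0.042). Of all genes 1.17% were higher and 0.416% lower. The call held in 4 of 20 settings, and its adjusted p ranged from 0.042 to 0.16 over them. Kcnab3 shares 5.13% of its exon bases with the antisense gene Kcnab3os. The highest level, 33.0, was in PFC ZT1 CJL 2, the library with an olfactory bulb marker sum of 224. Without that library the difference was 0.33 (adjusted p = 0.13). Without the PFC libraries over the cut for markers of neighbouring tissue, of these groups ZT1 CJL 2 and ZT1 Ctrl 1, it was 0.32 (adjusted p = 0.16). The call also ended without PFC ZT1 CJL 1 (adjusted p = 0.065) or CJL 3 (adjusted p = 0.097). The part of the markers themselves in the result was not tested. The partner Lgi2 was also higher (0.43 ± 0.08).

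At ZT13 in PFC no member was called between CJL and Ctrl, and 0.0201% of genes were. At an unadjusted P under 0.05, 9 members were higher under CJL, against 5.73% of genes, and 2 lower, against 6.92%. Kcnh4 was 9.83, 8.80 and 9.75 FPKM under CJL and 11.3, 12.4 and 11.8 in Ctrl (-0.32 ± 0.09, adjusted p = 0.3). Kcna1 was 23.7, 24.98 and 24.6 under CJL and 23.2, 15.1 and 12.7 in Ctrl (0.57 ± 0.17, adjusted p = 0.3). Kcnn3 (4.05, 4.21 and 3.94 against 3.32, 3.21 and 2.75, 0.39 ± 0.11) and Kcnk10, a leak channel (1.4997, 1.48 and 1.62 against 1.02, 1.14 and 1.15, 0.44), were higher under CJL in all 3 libraries without passing. Kcnip4, picked after its values were seen, was 5.18, 25.1 and 5.86 under CJL and 25.9, 27.8 and 24.8 in Ctrl (-1.50 ± 0.44, adjusted p = 0.3), so that 2 of the 3 CJL libraries were far below every other PFC library and the third was not.

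In NAc no member was called in any of the 4 comparisons of time or lighting, and neither was any other gene (0% of 15573 genes in each). Between ZT13 and ZT1 in Ctrl, 9 of 74 members were higher at an unadjusted P under 0.05, against 5.21% of genes, and 2 lower, against 4.88%. Kcnk1 was 40.2, 37.7 and 38.0 FPKM at ZT13 and 29.5, 32.9 and 32.0 at ZT1 (0.30 ± 0.08, adjusted p = 0.24). Kcnj6 was 4.07, 3.00 and 3.90 against 1.31, 2.26 and 2.23 (0.91 ± 0.28, adjusted p = 0.3), and Kcns1 2.07, 2.85 and 3.46 against 1.29, 1.20 and 1.70 (0.94 ± 0.29, adjusted p = 0.31). Kcnj16 was lower at ZT13, at 6.67, 7.09 and 5.73 against 8.10, 8.89 and 9.06 (-0.42 ± 0.13, adjusted p = 0.31). The sums of 8 cortical projection markers in the same libraries were 243, 222 and 190 FPKM at ZT13 and 57.7, 64.1 and 112 at ZT1. None of the 8 markers was called, all 8 differences were above 0, and their part in the result was not tested.

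Under CJL in NAc, 5 of 74 members had an unadjusted P under 0.05 between the times (5.21% of genes), among them Kcna2 (-0.55 ± 0.15), Kcnt1, a sodium-activated channel (0.30 ± 0.11), and Kcnn2 (0.57), all with an adjusted p over 0.9. Between CJL and Ctrl at ZT1 there were also 5 (7.71% of genes), and Kcnj6 (0.73), Kcnk10 (0.60) and Kcna3 (0.51) were higher under CJL in all 3 libraries. All 8 cortical projection markers (median 0.41) and none of the 10 striatal projection markers (median -0.68) had differences above 0 there, without a call, and CJL 2 and 3 are the libraries with thalamus and hypothalamus sums of 442 and 438. The part of these markers in the result was not tested. At ZT13, 3 members were higher under CJL, against 5.31% of genes, and 8 lower, against 3.01%. Kcnk1 was 29.7, 33.8 and 29.7 under CJL and 40.2, 37.7 and 38.0 in Ctrl (-0.31 ± 0.08, adjusted p = 0.45). Kcnab2 was 70.1, 64.2 and 27.9 under CJL and 99.2, 108 and 107 in Ctrl (-1.06 ± 0.29, adjusted p = 0.46). The lowest Kcnab2 level, 27.9, was in NAc ZT13 CJL 3, which also held the highest sum of thalamus and hypothalamus markers and the highest Kcna6 level of all libraries, 27.6. Kcna2 was 19.8, 12.0 and 17.2 against 24.998, 21.3 and 21.6 (-0.49 ± 0.15), and Kcna1 17.2, 15.6 and 14.1 against 22.4, 19.7 and 21.5 (-0.44 ± 0.15). In the same libraries cortical projection marker sums were 204, 93.2 and 76.6 under CJL and 243, 222 and 190 in Ctrl, with 7 of 8 markers below 0 and none called, and pericyte and smooth muscle sums were 57.9, 55.4 and 53.6 against 71.4, 69.9 and 69.5. The part of these markers in the result was not tested. The interaction of lighting and time in NAc had 5 members (6.47% of genes) at an unadjusted P under 0.05 and none after adjustment (0% of genes). Its smallest P were those of Kcna2 (-0.65 ± 0.21), Kcnj6 (-1.12 ± 0.39), Kcnk10 (-0.82) and Kcnk4 (-1.14).

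Kcnj6 (ENSMUSG00000043301, mm10 chr16:94749266-94997696) differed between regions in its change with time. In Ctrl mice it fell from ZT1 to ZT13 in PFC, by 0.78 on the log2 scale, and its levels in NAc were higher at ZT13, with values given above. The difference of the 2 changes (NAc minus PFC) was 1.70 ± 0.33 (adjusted p = 0.038 over 16072 genes), the only call among 76 members, against 0.33% of genes higher and 0.23% lower. Under CJL the levels were 9.04, 9.41 and 8.58 at ZT1 and 7.61, 7.81 and 7.82 at ZT13 in PFC, and 2.70, 2.75 and 4.28 at ZT1 and 3.13, 1.91 and 3.43 at ZT13 in NAc, where the times overlapped. The call held in 21 of 31 settings, with values from 1.37 to 1.93. It ended without any of PFC ZT1 Ctrl 1, 2 and 3, PFC ZT13 Ctrl 2 and 3, NAc ZT1 Ctrl 1 and NAc ZT13 Ctrl 1 and 3. The cortical marker sum in NAc was higher at ZT13, as given above, and in PFC it was 619, 591 and 656 at ZT13 and 580, 699 and 612 at ZT1. The part of these markers in the result was not tested. Kcnj6 shares 4.98% of its exon bases with the gene Gm41505 on the opposite strand.

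**Figure D5:**
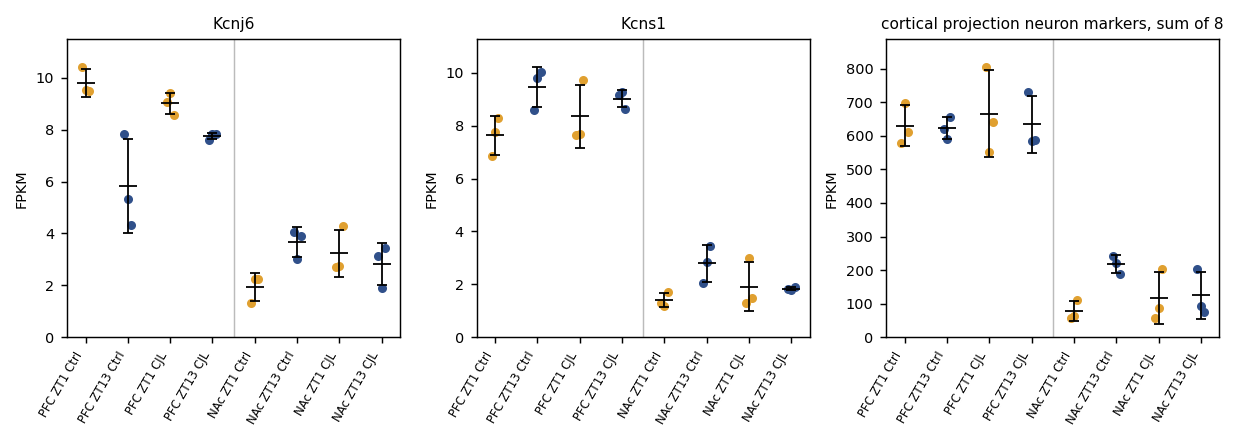
FPKM of Kcnj6 and Kcns1 and the summed FPKM of 8 cortical projection neuron markers in the 8 groups (points libraries, ZT1 orange, ZT13 blue, bars mean ± SD of 3). In NAc of Ctrl mice all 3 measures are higher at ZT13 than at ZT1, while in PFC Kcnj6 is lower at ZT13.

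The other changes did not differ between regions past the threshold for any member (0% of 16072 genes in each). For CJL against Ctrl at ZT1, 9 members had an unadjusted P under 0.05 (10.8% of genes), led by Kcna3 (1.26 ± 0.35, adjusted p = 0.23), with Kcnk1 (-0.24 ± 0.09), Kcnk2 (-0.33 ± 0.12) and Kcnip2 (-0.73 ± 0.27) after it. For CJL against Ctrl at ZT13 there were 13 (12.6% of genes), led by Kcna1 (-1.01 ± 0.24, adjusted p = 0.19), Kcnk1 (-0.31 ± 0.09), Kcnab2 (-1.35 ± 0.40) and Kcna2 (-0.73 ± 0.22). For the times under CJL there were 4 (3.35% of genes), led by Kcnc1 (-0.38 ± 0.14). The comparisons of time and of lighting share the same Ctrl libraries, so Kcna1 and Kcna2 appear in several of them through the same values.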

How the data were processed

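RNA-seq was done by the authors on polyadenylated RNA of PFC and NAc, with reads of both ends on an Illumina instrument. Their notes name FastQC 0.11.9, HISAT2 with mm10, StringTie and DESeq2, and strand is not given in the sources used here. The authors deposited FPKM for each of the 24 libraries, scaled for depth and gene length. No counts were used, so the depth behind a value is unknown and precision is given by the spread between libraries. Summed FPKM were 380073 to 408840 per library. The deposited tables of 8 comparisons hold the authors' fold changes and p-values and were not used.

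From the FPKM, log2(FPKM + 0.1) was taken and group means were compared by limma's moderated test with a mean-variance trend (limma 3.58.1, R 4.3.3), in place of the count test of the study's methods. Genes were kept where 3 or more libraries of a fit reached an FPKM of 1, with 12 libraries for each region (14914 genes in PFC, 15573 in NAc) and 24 for the regions (16072). The test is two-sided, and p-values were adjusted by Benjamini-Hochberg over all genes of each of 15 comparisons. The code was tested on simulated data. Some members and a partner are counted but not reported here by name. Members named are all those called, where more than 16 pass the 8 largest rises and 8 largest falls without overlap, and where none passes up to 4 of smallest P without overlap. The members and gene lists were chosen with earlier results of these data known. Alternatives were quantile normalization, median-of-ratios scaling, no filter, a pseudocount of 1, a comparison's groups fitted alone, the replicate number as a block, leaving out each library, leaving out libraries whose mean log2 level of olfactory bulb, choroid plexus, or thalamus and hypothalamus markers was over 1.5 above their region's median, and, chosen after seeing the data, a correction for GC content and length (20 bins). Of PFC the marker cut left out ZT1 Ctrl 1, ZT13 Ctrl 1, ZT1 CJL 2 and ZT13 CJL 1. Of NAc it left out ZT13 Ctrl 3, ZT1 CJL 2 and ZT13 CJL 3 and kept ZT1 CJL 3. Exon overlaps come from GENCODE M21, where 26 of 76 members share exon bases with another gene, 24 on the opposite strand. Python 3.11.15, pandas 2.3.3 and matplotlib 3.10.9 made tables and figures.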

Additional observations from a re-analysis of the deposited data

Results flagged for a closer look

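The change of Kcnj6 from ZT1 to ZT13 in Ctrl mice differed between the regions by 1.70 on the log2 scale (NAc minus PFC, limma, adjusted p = 0.038), which is the test of the difference itself. Levels at ZT13 were lower than at ZT1 in PFC in all 3 libraries and higher in NAc in all 3, and no cause was tested.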

How the results depend on the processing

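Of 69 differences of members recomputed in the other settings, 0 changed sign. These had been chosen for a call or a small P, so the choice itself made a change of sign unlikely. Differences of other members were not recomputed. The 13 members called between ZT13 and ZT1 in PFC of Ctrl mice were 5 with no filter on low FPKM and 3 with the groups fitted alone, and 10 with the replicate block. Kcnab3, the member called at ZT1 in PFC for CJL against Ctrl, was lost (0 members) with no filter, quantile normalization, the replicate block, the GC and length correction, the groups fitted alone, and without libraries with high markers of neighbouring tissue. Without those libraries 1 member (Kcna1) was called at ZT13 in PFC for CJL against Ctrl, and 3 (Kcna1, Kcnab2 and Kcnma1) in place of Kcnj6 for the difference of the time change between regions, which had 0 with no filter. Called values that moved by over 1.5 times were those of Kcnj5 between regions (0.95 with a pseudocount of 1) and Kcnd2 (0.29 with the GC and length correction), and, for time in PFC of Ctrl mice, Kcng3 (-0.46 with a pseudocount of 1) and Kcnab3 (0.30) and Kcnn3 (-0.31, not called) with the correction, beside those of Kcnd3, Kcnj9 and Kcnk1 given above. The region call of Kcnh4 (-0.23) ended with the correction and without the libraries with high markers.

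Over all genes, those called between ZT13 and ZT1 in PFC of Ctrl mice were 1840, against 973 with no filter, 937 with the GC and length correction and 285 with the groups alone. Those at ZT1 in PFC for CJL were 237, against 42 with no filter, 8 with the block, 16 without the libraries with high markers, 130 with the correction and 9 with the groups alone.

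Without 1 library, members called ranged from 1 to 22 for time in PFC of Ctrl mice, 0 to 1 for time under CJL there, 0 to 2 and 0 to 3 for CJL at ZT1 and ZT13 in PFC, 0 to 6 for the PFC interaction, 59 to 62 between regions, and, for region differences, 0 to 3 (time in Ctrl), 0 to 1 (time under CJL), 0 to 1 (CJL at ZT13) and 0 to 0 (CJL at ZT1). In NAc they stayed at 0.

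Libraries of the same replicate number did not pair within a region (correlation of deviations -0.17 to 0.11, against -0.20 to 0.21 for other numbers). Between PFC and NAc of a group it was 0.02 to 0.13, against -0.15 to 0.11, and 16 of 24 libraries correlated best with their own number. Counts per gene were not used, so the counting error of low members such as Kcne2, Kcnj5 and Kcnj14 is not given.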
